A study of Drosophila melanogaster with 6 samples.

Results

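A set of 10 Wnt signalling genes was examined in Drosophila eye-antennal discs: the ligands Wnt6 and Wnt10, the glypicans dally and dlp, the receptors fz, fz2 and fz3, and the feedback regulators and intracellular brakes nkd, Notum and Axn. Members were the probe sets whose annotated gene was one of these 10 names. Of the 10 genes, 5 had a probe set among the 11982 named genes used here, with 1 probe set each: Wnt6, dlp, nkd, Notum and Axn. Wnt10, dally, fz, fz2 and fz3 were not analysed here, so the receptors and 1 of the 2 glypicans have no value in what follows. Of the 5 genes, 4 passed the filter on low values (a log2 value of at least 4 on at least 3 of the 6 arrays) and were tested among 6447 genes; Notum did not pass.

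Eye-antennal discs are sheets of larval epithelium from which the eye, antenna and head capsule of the adult fly develop. They came from wandering larvae of the third instar grown at 25 °C. The tumour genotype was ey-Gal4 GS(2)88A8 UAS-Dl/+, in which ey-Gal4 switches on UAS transgenes in the developing eye and UAS-Dl encodes Delta, a ligand of Notch. The control genotype was GS(2)88A8 UAS-Dl/+, so both genotypes carried the GS insertion and the Delta transgene, and both were in the w1118 strain. No group carried ey-Gal4 alone, or ey-Gal4 with only the GS insertion or only UAS-Dl. The driver's own effects, those of the GS insertion under it and those of Delta therefore cannot be told apart. Each genotype had 3 biological replicates, each a pool of discs from many larvae on its own array. Antenna and eye were dissected together, so every value is an average over both.

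Wnt proteins are secreted, lipid-modified ligands. They bind Frizzled receptors on the receiving cell, which halts the destruction complex that otherwise degrades the beta-catenin Armadillo. Glypicans, which are cell-surface proteins carrying heparan sulphate chains, hold and hand on the ligand between cells, and several proteins made or needed in responding cells damp the signal again. In the eye disc, Wingless comes from the lateral margins, where it restrains the start of the morphogenetic furrow and favours head cuticle over retina.

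In both genotypes the replicate 1 array differed from the rest. The 18S rRNA control, averaged over its 3 probe sets, was at a log2 intensity of 10.33 and 12.48 on the replicate 1 arrays and at 5.50 to 7.19 on the others. The actin control's 3'-minus-5' difference was 0.858 and 1.03 on the replicate 1 arrays and 0.350 to 0.591 on the others. The genotype means were 7.92 in tumour and 7.94 in control for 18S rRNA, and 0.609 and 0.616 for actin (exact permutation p = 1 for both, two-sided, n = 3 per genotype, where 0.1 is the smallest p possible). Same-number arrays of the 2 genotypes deviated together from their genotype means, so the members' differences are given from a fit without the replicate number and from a fit with it as a block; for other genes the text names the fit. The blocked fit compares tumour with control within a replicate number. The matching of numbers 2 and 3 is weakly borne out, since tumour replicate 2 deviated more like control replicate 3 (correlation 0.668) than control replicate 2 (0.467). Defining markers of the labelled tissue were present: all 6 eye-field markers, all 9 antenna and head markers with a probe set and all 4 disc epithelium markers with a probe set passed the filter.

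Wnt6 is the ligand gene that lies beside wg on chromosome arm 2L and is expressed in discs in patterns like those of wg. Its log2 intensity was 7.32, 9.08 and 9.30 in control replicates 1, 2 and 3. In tumour replicates 1, 2 and 3 it was 6.88, 8.78 and 8.81. Both replicate 1 arrays were far below the other 4, the ranges of the genotypes overlapped, and within each replicate number the tumour array was the lower one. The within-number differences were -0.44, -0.30 and -0.49 on the log2 scale. The mean of Wnt6 was 8.16 ± 1.1 in tumour discs and 8.56 ± 1.1 in control discs (SD, n = 3). The difference was -0.41, which corresponds to 75.4% of the control intensity.

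Without the block, limma did not call that difference (adjusted p = 1), and its 95% interval ran from -2.20 to 1.38. With the block Wnt6 fell by 0.41 (SE 0.0807, 95% interval -0.616 to -0.200, limma adjusted p = 0.0467). When pair 1, 2 or 3 was left out, the blocked difference stayed between -0.37 and -0.46. The limma adjusted p was 0.0779 without pair 1, where the blocked fit called 434 of all 6447 tested genes, and 0.0919 without pair 2, where it called 384. Without pair 3 it was 0.341, and there the blocked fit called 0 of all tested genes. In the fit without the block, leaving out 1 array moved the difference between -1.03, without control replicate 1, and 0.23, without tumour replicate 1, because either step leaves 1 replicate 1 array unmatched. In pooled discs, fewer cells making a transcript and less RNA in each such cell cannot be told apart.

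dlp encodes Dally-like, a glypican anchored to the cell surface that binds Wingless and Hedgehog and shapes how far they act. Its log2 intensity was 11.09, 11.40 and 11.41 in control replicates 1, 2 and 3. In tumour replicates 1, 2 and 3 it was 10.73, 11.11 and 11.23. The tumour array was the lower one in each same-number pair, by 0.360, 0.296 and 0.178, yet the genotypes overlapped, since control replicate 1 lay below tumour replicates 2 and 3. Its mean was 11.02 ± 0.26 in tumour discs and 11.30 ± 0.18 in control discs (SD, n = 3). The difference was -0.28, or 82.5% of the control intensity.

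Without the block, dlp was not called by limma (adjusted p = 0.837, 95% interval -0.678 to 0.122). With the block dlp fell by 0.28 (SE 0.0549, 95% interval -0.419 to -0.136, limma adjusted p = 0.0467). With 1 pair left out, its blocked difference ran from -0.24 to -0.33. The limma adjusted p was 0.0862 without pair 1 and 0.116 without pair 2; it was 0.244 without pair 3, the setting with 0 calls among all tested genes. The other fly glypican gene, dally, was not analysed here, so whether it moved with dlp is not reported.

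**Figure D1:**
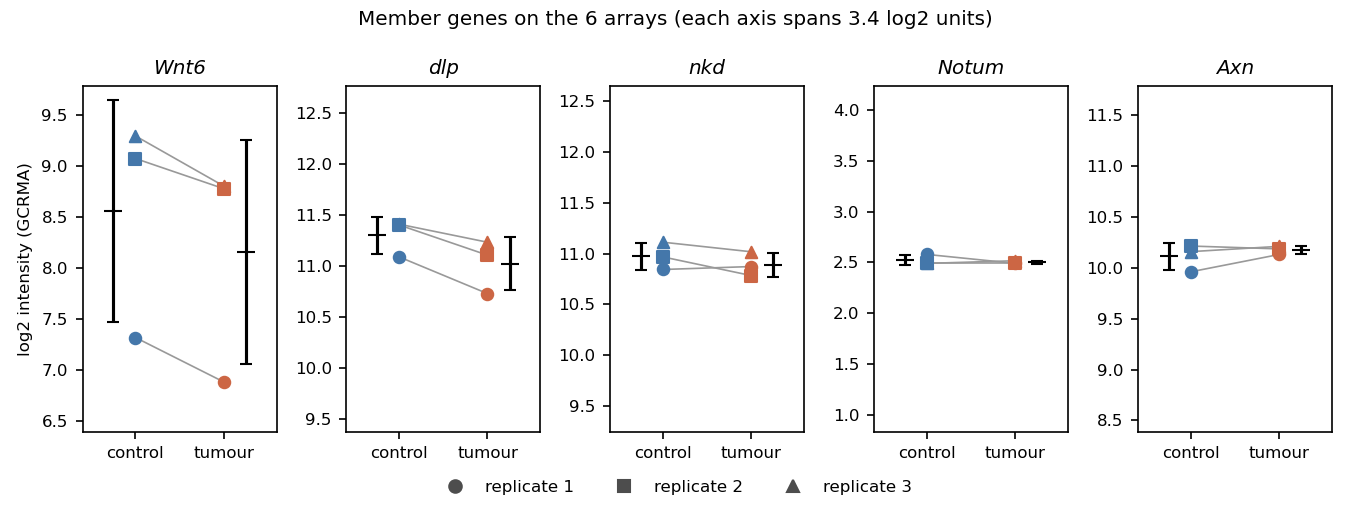
Log2 intensity (vertical axes, each spanning the same number of log2 units) of the 5 member genes with a probe set, in control (blue) and tumour (orange) discs. Circles, squares and triangles are replicates 1, 2 and 3, grey lines join arrays of the same number, and black bars are the mean ± SD (n = 3); Wnt6 spreads over more than 2 log2 units through its replicate 1 arrays, every Wnt6 and dlp line slopes down, and Notum stays flat near 2.5.

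nkd encodes Naked cuticle, an intracellular protein that binds Dishevelled and is induced by Wingless, which it then antagonises. Its log2 intensity was 10.84, 10.97 and 11.11 in control replicates 1, 2 and 3. In tumour replicates 1, 2 and 3 it was 10.87, 10.78 and 11.02. The tumour array was slightly higher in pair 1 and lower in pairs 2 and 3, and the genotypes overlapped. nkd had a mean of 10.89 ± 0.12 in tumour discs and 10.97 ± 0.13 in control discs (SD, n = 3). The difference of -0.08 was not called by limma without the block (adjusted p = 1) or with it (adjusted p = 0.39, 95% interval -0.235 to 0.069), so the blocked interval reaches falls nearly as large as that fitted for dlp.

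Axn encodes Axin, the scaffold of the destruction complex; the use of an Axin gene as a feedback target is best known for Axin2 in vertebrates. Axn was at 9.96, 10.21 and 10.16 log2 in control replicates 1, 2 and 3. In tumour replicates 1, 2 and 3 it was at 10.13, 10.19 and 10.21. The tumour arrays lay within a narrow band, and control replicate 1 was the lowest of the 6. Axn had a mean of 10.18 ± 0.041 in tumour discs and 10.11 ± 0.13 in control discs (SD, n = 3). The difference of 0.06 was not called by limma without the block (adjusted p = 1) or with it (adjusted p = 0.523, 95% interval -0.097 to 0.225), and it was -0.03 when arrays were centred on ribosomal protein genes and -0.01 without control replicate 1.

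Notum encodes a secreted esterase that removes the lipid from Wnt ligands outside the cell, and Wingless induces it in wing discs. Its probe set was listed between 2.49 and 2.58 on the 6 arrays, with 4 arrays at 2.49, against a floor of 2.165 for the scale. No array came near the filter's log2 value of 4 in either genotype, so neither a level nor a fold change is given for it.

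Counted over the 4 tested members, limma without the block called 0 (0 also at an unadjusted p under 0.05), where it called 0.512% of all 6447 tested genes. With the block it called 2 of 4 lower, Wnt6 and dlp, and 0 higher, where 5.38% of all tested genes were called lower and 4.06% higher. No member separated the genotypes without overlap, which 15.9% of all tested genes did. Wnt6 and dlp were lower in all 3 same-number pairs, as were 20.6% of all tested genes. With only 4 tested genes, chosen with these results known, the counts describe the members and give no rate. The share of all tested genes with a lower difference was 6.5% for Wnt6, 9.94% for dlp, 23.9% for nkd and 52.7% for Axn, while the median difference over all tested genes was 0.05.

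**Figure D2:**
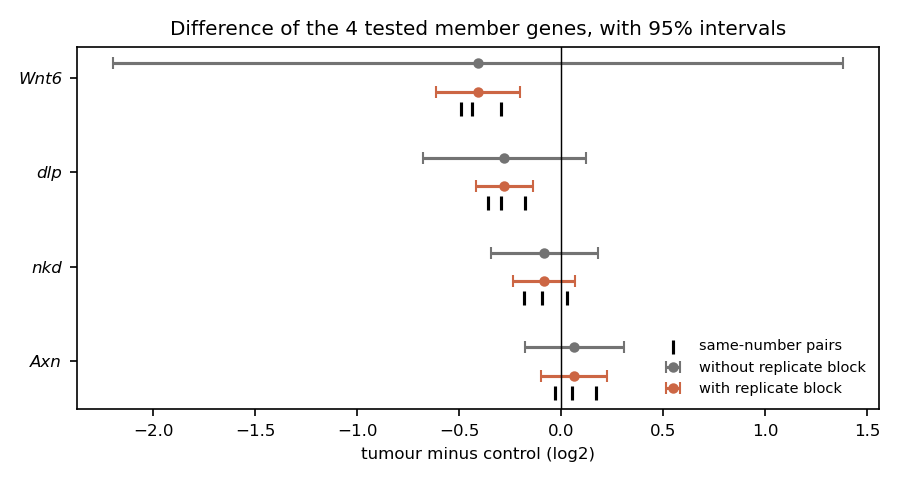
Tumour minus control (horizontal axis, log2) for the 4 tested member genes, with 95% intervals from the limma fit without the replicate block (grey) and with it (orange); black ticks are the 3 same-number pairs. The interval of Wnt6 shrinks from between -2.20 and 1.38 to between -0.616 and -0.200 with the block, and the intervals of nkd and Axn include 0 in both fits.

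The member genes differed most in how they followed the replicate 1 arrays. Averaged over genotypes, the replicate 1 arrays stood at -1.89 log2 units for Wnt6 relative to the others, and only 0.807% of all tested genes had a lower shift. For dlp the shift was -0.38, close to the median of -0.34 over all tested genes. nkd and Axn shifted by -0.11 and -0.15, inside the range of most genes, which ran from -1.17 at the 5th percentile to 0.22 at the 95th. For Wnt6 this shift was larger than the genotype difference of -0.41. The 18S rRNA and actin controls named above moved with the replicate 1 arrays, and their part in the shift was not tested.

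**Figure D3:**
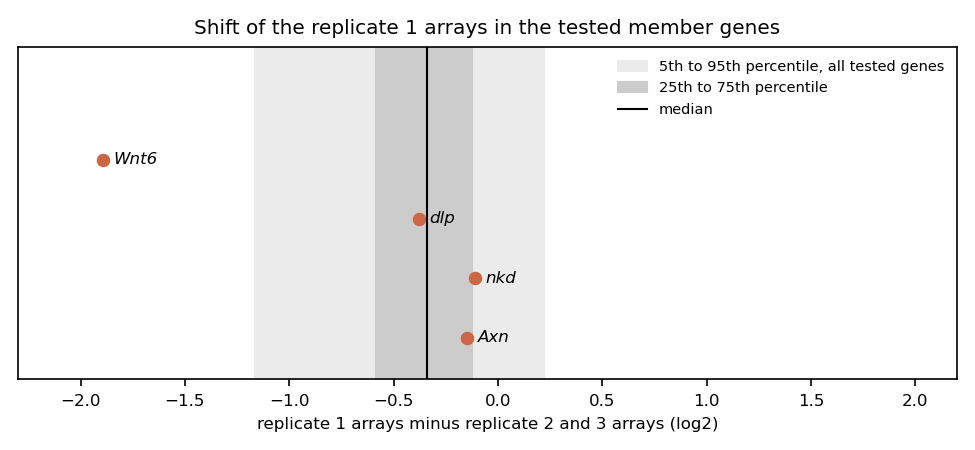
Mean of the replicate 1 arrays minus mean of the replicate 2 and 3 arrays (horizontal axis, log2) for the 4 tested member genes, one per line. Grey bands give the 5th to 95th and 25th to 75th percentiles and the black line the median over all tested genes; Wnt6, at -1.89, lies outside the bands, while dlp sits at the median.

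Genes with patterns most like those of the called members were listed by Pearson correlation of log2 values over the 6 arrays, among one probe set per gene. For Wnt6 they were Atet (r = 0.998), CG13800 (r = 0.998) and beta-PheRS (r = 0.997), and 849 genes exceeded 0.95. For dlp they were porin (r = 0.996), pain and yip2 (both r = 0.995), and 231 genes exceeded 0.95. These correlations are descriptions over 6 arrays that share the replicate 1 shift. After the mean of each replicate number was subtracted, which leaves the 3 within-number differences, the closest genes to Wnt6 were CG11658, CG17646 and Cipc, and those to dlp were ras, mRRF1 and Chchd3, with r above 0.999 in every case; 451 and 431 genes then exceeded 0.95.

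The rest of the pathway was followed in a list of 90 further genes arranged by role, of which 70 had a probe set here and 65 were tested. Without the block limma called 0 of the 65 (6 at an unadjusted p under 0.05). With the block it called 9, which is 13.8% against 9.45% of all tested genes, 4 higher and 5 lower. The list's median difference was 0.08 beside 0.05 over all tested genes. Of the 65 differences 42 were positive, as were 3968 of the 6447 over all tested genes. Without pair 2 the blocked fit called 3 of the 65, beside 5.96% of all tested genes. Without pair 3 it called 0 of the 65 (12 at an unadjusted p under 0.05) and 0 of all tested genes. With replicates 2 and 3 alone, limma without a block called 4 of the 65, namely Swim, Ror, H15 and ac, beside 7.17% of all tested genes. None of the other Wnt ligands in the list, wg, Wnt2, Wnt4, Wnt5 and wntD, was analysed here.

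Close to the ligand, Swim, which encodes a secreted protein described as a Wingless partner, fell by 0.52 in the blocked fit (limma adjusted p = 0.0263; adjusted p = 0.292 without the block). Its values did not overlap between genotypes, nor did those of 15.9% of all tested genes. The within-number differences were -0.33, -0.66 and -0.56. It was the only 1 of 9 tested genes of ligand secretion called by limma with the block, which called 9.45% of all tested genes. wls, which encodes the carrier that takes Wnt proteins to the surface, was at 0.04 (limma blocked adjusted p = 0.631). The acyltransferase gene por, whose product adds the lipid, was at 0.26 (limma blocked adjusted p = 0.252).

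Among 5 tested receptors and co-receptors the blocked fit called 1, beside 9.45% of all tested genes. This was Ror, a receptor tyrosine kinase with a Wnt-binding domain, which rose by 0.85 (limma blocked adjusted p = 0.0221, 0.373 without the block). The tumour arrays were higher by 1.14, 0.75 and 0.66 within the replicate numbers. They did not overlap the control arrays, which also held for 15.9% of all tested genes. drl, a Wnt5 receptor of the Ryk family known from axon guidance, was at 0.49 (limma blocked adjusted p = 0.0696).

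Genes that build or modify the heparan sulphate chains carried by Dally-like were not called. Of 12 tested, 6 had a positive difference, the median was 0.03, and limma called 0 with or without the block. The smallest blocked p among them was that of Papss, which makes the sulphate donor, at -0.39 (limma adjusted p = 0.0521). The largest difference was that of botv, at 0.77 (limma blocked adjusted p = 0.166), with within-number differences of 1.65, 0.20 and 0.46. Of 3 tested heparan sulphate proteoglycans other than the glypicans, limma likewise called 0 in either fit; trol, the fly perlecan, was at -0.37 (limma blocked adjusted p = 0.181), Sdc at 0.06 and Cow at 0.005.

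In signal transduction 1 of 10 tested genes was called with the block, beside 9.45% of all tested genes. This gene was wdb, a regulatory subunit of protein phosphatase 2A, which fell by 0.35 (limma blocked adjusted p = 0.0372, 0.88 without the block). The kinase genes gish, CkIalpha and dco and the ubiquitin ligase genes slmb and Cul1 lay between -0.04 and 0.12. All tested genes of this role other than wdb lay between -0.10, for SkpA, and 0.18, for tws. Among 9 tested nuclear factors the blocked fit called 1, beside the same 9.45% of all tested genes. It was Chi, a cofactor of LIM-domain transcription factors, which rose by 0.34 (limma adjusted p = 0.042 with the block and 0.818 without). All 9 differences were positive with a median of 0.19, where 3968 of all 6447 tested genes had a positive difference. None of 5 tested planar polarity partners of Frizzled was called by limma in either fit; the smallest blocked p was that of the cadherin gene stan, at 0.21 (limma adjusted p = 0.059).

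Among the listed roles, transcription factor genes that Wingless is known to regulate in one tissue or another had the largest share of calls. In the blocked fit limma called 5 of 12, in both directions, where it called 9.45% of all tested genes. Without the block it called 0 of them. The lists were chosen with earlier results of these data known. H15, a T-box gene that marks ventral leg fate, fell by 1.32 (limma blocked adjusted p = 0.0207, 0.419 without the block). Its log2 intensity was low, at 4.88 to 5.70 in tumour and 5.78 to 7.19 in control, where the filter's value is 4. Dll, which specifies distal appendages, fell by 0.61 (limma blocked adjusted p = 0.0352), and the head gap gene oc fell by 0.52 (limma blocked adjusted p = 0.0429). The proneural genes sc and ac rose by 0.45 and 0.51 (limma blocked adjusted p = 0.0294 and 0.0497). H15, oc, sc and ac had no overlap between genotypes, as did 15.9% of all tested genes, while Dll overlapped. The list median was -0.05, and these genes answer to other pathways too, so their values are not a reading of Wingless activity.

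**Figure D4:**
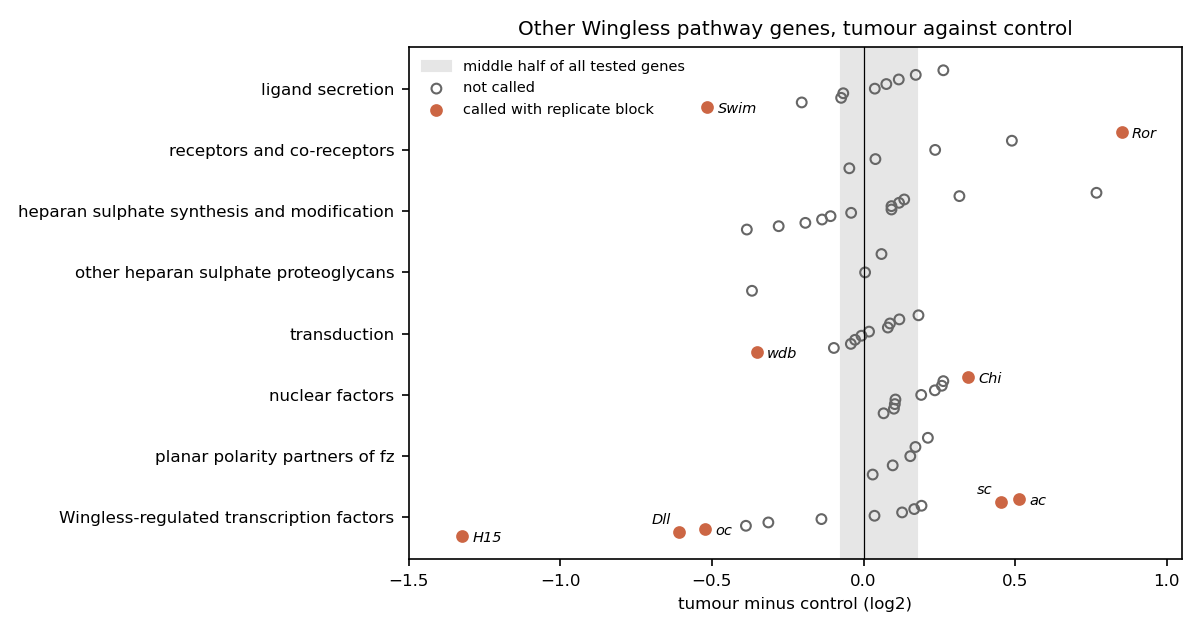
Tumour minus control (horizontal axis, log2) for the 65 tested genes of the wider Wingless pathway, one point per gene, by role. Filled points were called by limma with the replicate block (adjusted p under 0.05) and the grey band covers the 25th to 75th percentile of all tested genes; the 9 filled points run from H15 at -1.32 to Ror at 0.85.

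Markers of disc regions and of other cell types were also compared. The counts that follow are from the blocked fit, which called 4.06% of all tested genes higher and 5.38% lower; without the block limma called 1 of these markers, the muscle gene TpnC73F, which was lower. Eye-field markers were called higher for 5 of 6 tested genes, and their summed log2 level was 14.48 to 14.65 in tumour and 13.68 to 14.13 in control. Antenna and head markers were called lower for 3 of 9, namely Dll and oc, which are also in the pathway list, and Scr, and higher for 1, dan. Scr lay near the filter's log2 value of 4, at 3.31 to 5.13 in tumour and 4.48 to 5.84 in control. The summed level of these markers was 12.84 to 13.15 in tumour and 12.79 to 13.07 in control. That sum is taken on the linear scale, so the brightest markers, danr, dan and salm, weigh most in it. These were the 3 of 9 with a positive difference, and the median of the 9 was -0.197, beside 0.05 over all tested genes. ss, at -0.51 (limma blocked adjusted p = 0.0626), did not overlap between genotypes, nor did 15.9% of all tested genes. Muscle and myoblast markers were called lower for 4 of 6 tested genes (Mlc1, up, TpnC73F and zfh1). Their summed levels were 12.63 to 12.87 in tumour and 13.18 to 13.35 in control. Of these, zfh1 was also near the filter value, at 3.8 to 4.4 in tumour and 4.5 to 6.2 in control. Act88F was under a log2 value of 4 on every array. Haemocyte markers were called lower for 2 of 10, the crystal cell genes PPO1 and PPO2, with summed levels of 11.20 to 11.69 in tumour and 11.90 to 12.33 in control. Of 5 tested glial markers 1, moody, was called lower. The 3 fat body markers with a probe set did not pass the filter, and their summed level was 7.52 on control replicate 3 and 4.47 to 4.50 on the other 5 arrays. The part of these shifts in the values of Wnt6 and dlp was not tested.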

How the data were processed

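RNA was hybridised to single-channel Affymetrix Drosophila Genome 2.0 arrays, per the labels' protocols, with 6 arrays in all. The deposited values are log2 intensities made by the authors with GCRMA, per the submitters' processing notes (version not given in the sources used here). The values themselves, from 2.165 to 15.79, show the log2 scale. The main results use them without further normalization. Arrays have no read depth, and their number limits the precision.

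Of 18952 probe sets, 183 controls were set apart. GEO's platform annotation gave probe sets their genes, with symbols updated from an NCBI gene table, and no probe set shared by several genes was used for a member. A probe set was tested when it reached a log2 value of 4 on at least 3 arrays (7962 probe sets), and the brightest tested probe set, by its mean over all arrays, stood for the gene. Tumour was compared with control, two-sided, by limma 3.58.1 (R 4.3.3, lmFit, and eBayes with trend). The p-values were adjusted by Benjamini-Hochberg across every tested probe set, at a threshold of 0.05. Both fits were tested on simulated data with replicate shifts and noise taken from the blocked fit. Added changes of 0.5 log2 were called for 0% of probe sets without the block and 66.4% with it. For added changes of 0.25 log2 the values were 0% and 13.2%. In the simulated data the pairing by number held by construction, which favours the blocked fit. These shares therefore do not show which fit suits the real arrays. The labels give the samples as biological replicates numbered 1 to 3 without saying what a number marks. Deviations from the genotype means correlated between same-number arrays at 0.794, 0.467 and 0.723 across tested probe sets, so the pairing comes from the data. The split of replicate 1 from the rest was the clear part of it: tumour replicate 2 correlated more with control replicate 3 (0.668) than with its own number, and control replicate 2 at 0.473 with tumour replicate 3, so the matching of numbers 2 and 3 is weakly borne out. Named pathway genes were those called in either fit, at most 4 for each role and direction, or the 1 with the smallest p in a role with none; further genes were named after their values were seen. The members, lists and tests were chosen with earlier results of these data known. Alternatives were another filter, centring, quantile normalization, no trend, array weights and leaving out arrays.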

Additional observations from a re-analysis of the deposited data

How the results depend on the processing

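The counts of called genes moved with several choices. Over all tested genes limma called 33 without the block and 609 with it, and from 0 (for example the blocked fit with no filter or without pair 3) to 1356 (array weights, no block) over all settings. The number of members called lower by limma was 0 without the block and 2 with the replicate block, and it was 2 again when the blocked fit used median centring, ribosomal centring, quantile normalization or the stricter filter (a log2 value of 6). It was 0 in the blocked fit with no filter and without pair 3, where 0 of all genes were called, and 0 without pair 1 or pair 2, where 434 and 384 genes were called; it was 1, dlp, with array weights, whose estimate did not fully converge and gave tumour replicate 2 a weight of 18.7 against 0.105 to 2.22 for the others. Members called higher stayed at 0 in all settings run. The pathway list went from 0 called genes to 9 with the replicate block, 12, 11, 13 and 11 under the same 4 blocked settings, 4 with replicates 2 and 3 alone with or without the block, and 3 and 0 with pair 2 or pair 3 left out. Without the block it was 1 with median or ribosomal centring, 3 with quantile normalization and 17 with array weights; it was 0 without any single array, where 0 to 13 of all tested genes were called.

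Wnt6 was at 0.23 without tumour replicate 1 and between -1.03 and -0.04 without any other single array, in the fit without the block. dlp ran from -0.38 to -0.13 over the same settings. Axn was at -0.0308 with ribosomal centring, with or without the block, and ran from -0.0111, without control replicate 1, to 0.1156 when 1 array was left out. nkd kept a negative sign in all settings run, from -0.23 to -0.01, with a lowest limma adjusted p of 0.0521. The interval of Wnt6 without the block, which includes the shift between replicate numbers in the spread, spans changes in either direction larger than its own difference.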

Other observations

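The replicate 1 shift varied widely within the wider pathway as well. Cow, which encodes a secreted heparan sulphate proteoglycan that binds Wingless, was shifted by -1.51 on the replicate 1 arrays relative to the others, and the heparan sulphate epimerase gene Hsepi by -1.17, whereas mid and CkIalpha shifted by 0.75 and 0.49. The genotype differences of these 4 genes were 0.005, 0.32, -0.31 and -0.04, and limma called 0 of the 4 with or without the block. They were chosen after their values were seen.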
